A study of Mus musculus with 6 samples.

Results

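Integrins are cell-surface receptors built from an alpha and a beta chain, and laminins are basement membrane proteins built from an alpha, a beta and a gamma chain. Laminin networks underlie the tubules, the glomerular filter and the vessel walls of the kidney. Integrins on the cells above them bind laminin and link it to the actin cytoskeleton or, through *Itgb4*, to keratin filaments. Which chains a cell makes depends on its type. *Itgb4* and *Itgb6* belong to epithelia, *Lama2* and *Lama4* to muscle, stroma and vessels, and *Itgb2* to leukocytes. The integrin and laminin chains were chosen by gene symbol from the table of kidney transcripts. The rule found 37 genes among 23276 with a symbol, namely 18 integrin alpha, 8 integrin beta, 5 laminin alpha, 3 laminin beta and 3 laminin gamma chains. They hold 76 entries of the table, 46 with a RefSeq identifier and 30 assembled from the reads. Each gene is represented by its entry with the highest mean abundance.

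Total RNA was sequenced from the kidneys of 6 mice at postnatal day 22. All of them carried KspCre, a Cre recombinase driven in kidney tubule epithelium, and *Pkd1* F/RC, a floxed allele of *Pkd1* opposite an allele with the hypomorphic RC mutation. The genotype given for the 3 *Pkd1* F/RC SKO mice names no floxed miR-17~92 allele. The 3 *Pkd1* F/RC DKO mice were miR17~92 F/F, with both alleles of this cluster floxed. Cre was thus limited to tubules, the RC allele was present in every cell, and no kidney without the *Pkd1* alleles was analysed here. The values used are the authors' mean log2 CPM (counts scaled to the total of each library, as log2), which give 1 value for each transcript over the libraries of both groups. They carry no SD and no n, and the depth of the libraries is unknown. The difference between SKO and DKO kidneys was not analysed here, and the order of the chains is a description without a test. In whole-kidney RNA, fewer cells of a type and less RNA per cell cannot be told apart.

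The miRNAs floxed in DKO mice are shown because the 3′-UTRs of the chains were searched for matches to them. The 6 mature miRNAs of the cluster lie on chromosome 14 of GRCm38, the assembly also named mm10, and their sequences are those of RefSeq. Capitals mark the seed, bases 2 to 8 from the 5′ end, with which a miRNA pairs with its targets. miR-17 and miR-20a share a seed, as do miR-19a and miR-19b, whereas miR-18a and miR-92a each have a seed of their own.
miR-17-5p: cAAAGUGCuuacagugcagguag
miR-20a-5p: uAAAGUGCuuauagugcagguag
miR-18a-5p: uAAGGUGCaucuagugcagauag
miR-19a-3p: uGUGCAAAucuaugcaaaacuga
miR-19b-3p: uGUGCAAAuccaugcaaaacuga
miR-92a-3p: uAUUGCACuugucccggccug

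Markers of kidney cells were read first, since they set the scale for the chains. The 5 proximal tubule genes lay between 108 and 1030.0 CPM, with the phosphate transporter *Slc34a1* highest. The 3 genes of the thick limb and distal tubule lay between 169 and 1022.0 CPM, with the uromodulin gene *Umod* highest, and the 3 of the collecting duct between 41.0 and 77.7 CPM. The podocyte genes ranged from 13.0 CPM (*Nphs1*) to 131 CPM (*Podxl*), the endothelial genes from 27.0 to 60.2 CPM and the stromal genes from 44.8 to 128 CPM. Leukocyte markers ranged widely. The macrophage receptor *Csf1r* had 25.3 CPM, which exceeded *Nphs1*. *Ptprc* (CD45) had 8.20 CPM, *Cd68* 5.19 CPM and *Adgre1* (listed as *Emr1*) 4.49 CPM. The T cell gene *Cd3e* lay at 0.160 CPM. No entry was found for the neutrophil gene *Ly6g*, which is thus in no sum of markers.

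Most of the chains were well above the lowest values of the table. A mean of at least 1 CPM was reached by 33 of the 37 chains (89.2%), beside 55.9% of all genes with a symbol. The chains were then read in 4 classes, by the cells they are known from. All 10 epithelial chains reached 1 CPM, with a median log2 CPM of 4.42, *Lama5* highest at 6.48 and *Itga2* lowest at 4.01 CPM. Among them are *Itga2*, *Itga3*, *Itga6*, *Itgb4*, *Itgb6*, *Lama1*, *Lama3*, *Lama5* and *Lamb3*. Of the 10 mesenchymal chains 9 reached it, with a median of 3.44, *Itga1* highest at 6.73 and *Itga11* lowest at -0.92. They are *Itga1*, *Itga5*, *Itga7* to *Itga11*, *Itgb3*, *Lama2* and *Lama4*. Of the 9 leukocyte and platelet chains 6 reached it, with a median of 0.45 and *Itga4* highest at 2.68. The 8 chains classed here as shared by cell types all reached it and had the highest median, 6.39, with *Lamc3* lowest at 2.68. They are *Itgav*, *Itgb1*, *Itgb5*, *Itgb8*, *Lamb1*, *Lamb2*, *Lamc1* and *Lamc3*. The median log2 CPM was 1.24 over all genes and 3.65 over the 13001 genes at or above 1 CPM.

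**Figure D1:**
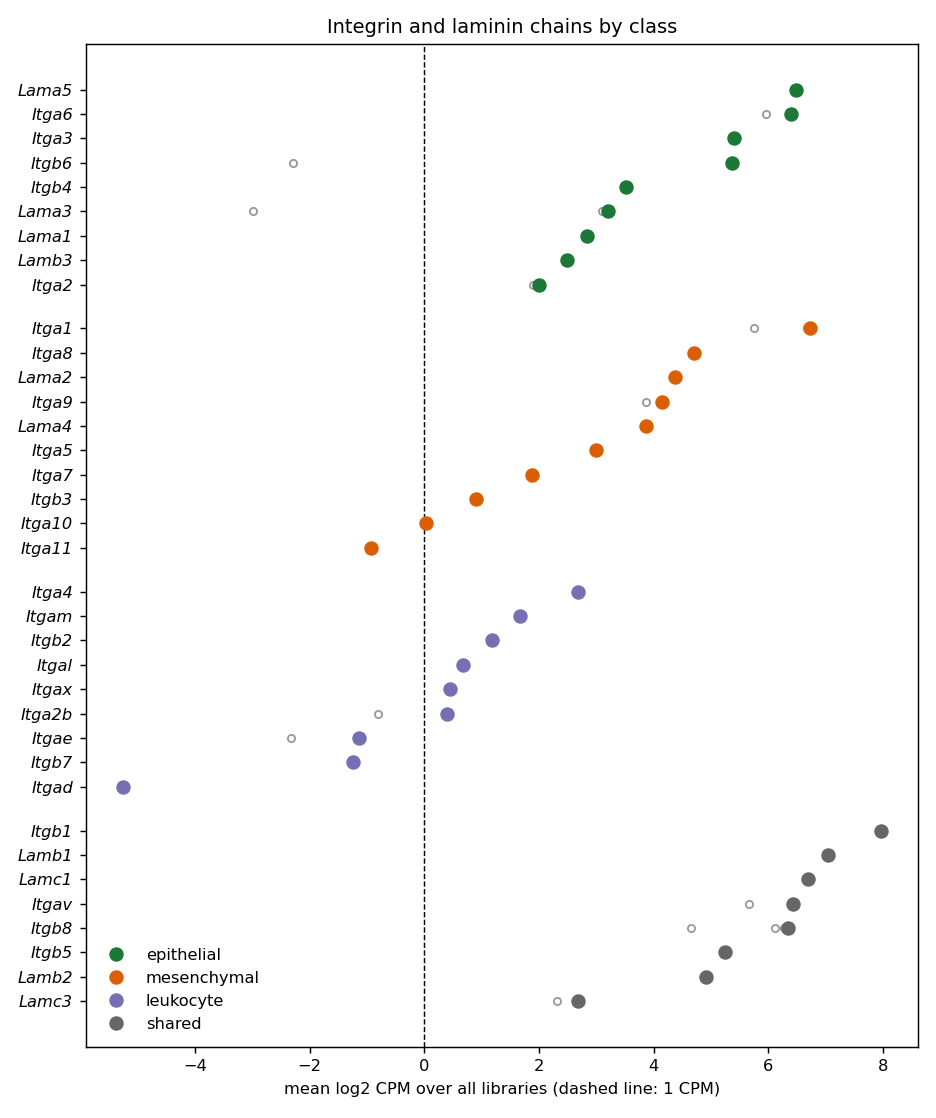
Mean log2 CPM over the kidneys of both groups for the entries of the integrin and laminin chains reported here, with the chains grouped and coloured by the cells they are known from (filled points, the entry that represents the gene, open points, its other entries, dashed line, 1 CPM). *Itgb1* stands highest at 7.96 among the shared chains, and no leukocyte or platelet chain exceeds 2.68.

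The order of the epithelial and mesenchymal classes changed when 5 chains that several cell types make were left out. *Itga3* is also abundant in podocytes, *Itga6* in endothelium and *Lama5* in glomerular and vascular membranes, while *Itgb3* and *Itga4* are likewise made by more than the class they are listed under. Without these 5 chains the epithelial median was 3.21 and the mesenchymal median 3.87 log2 CPM, so that the order turned. The leukocyte median was then 0.42 and still the lowest of the 3. The choice of the 5 chains was uneven and favoured this turn. *Itga3*, *Itga6* and *Lama5* lay above the epithelial median, whereas *Itgb3*, the only mesenchymal chain left out, lay below the mesenchymal median. *Itga1*, *Itga2*, *Itga9* and *Lama4*, also known from several cell types, were kept. Whether the order turns with another choice of chains to leave out was not tested. Read apart, the 5 epithelial integrins had a median of 5.37 and the 8 mesenchymal integrins one of 2.44 log2 CPM. Among the laminins the order was the other way, with 3.21 for the 5 epithelial and 4.12 for the 2 mesenchymal chains.

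To compare levels between chains, the CPM of the RefSeq transcript was divided by its length in kb, since a longer transcript yields more reads. On this scale the 8 beta integrins summed to 96.7 CPM per kb and the 18 alpha integrins to 53.5. The laminin alpha, beta and gamma chains summed to 14.0, 29.3 and 22.2 CPM per kb. The shared chains held 62.3% of the summed level of all chains, the epithelial chains 26.9%, the mesenchymal chains 9.22% and the leukocyte chains 1.58%. Without the 5 chains of several cell types, which were kept in the summed level of all chains, the epithelial class held 12.5% of it. In CPM of the highest entry, not divided by length, the mesenchymal share was 15.7%.

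**Figure D2:**
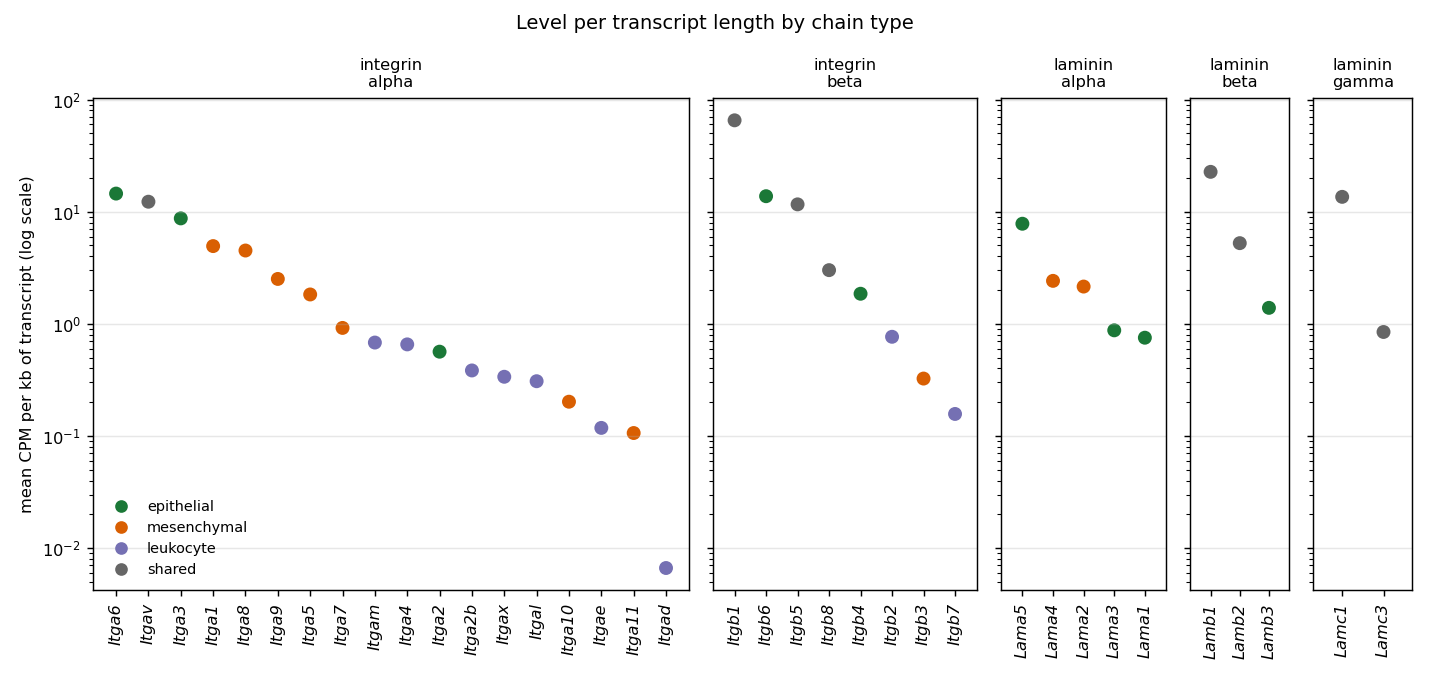
Mean CPM per kb of the RefSeq transcript, on a log axis, for the chains reported here by kind, with colours for the class and no error bars, since the table gives 1 mean per transcript. *Itgb1* leads the beta integrins at 65.3, *Itga6* the alpha integrins at 14.5, *Lama5* the laminin alpha chains at 7.81, *Lamb1* the laminin beta chains at 22.7 and *Lamc1* the laminin gamma chains at 13.6.

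*Itgb1*, the partner of most alpha chains, was the most abundant integrin RNA of these kidneys. The gene lies at chr8:128685654-128733200 on the plus strand, has 16 exons and encodes 798 codons. Its level was 249 CPM, at or above that of 99.5% of genes, and its single entry gave 65.3 CPM per kb. This was 67.5% of the sum over all beta chains and 5.62 times the level of *Itgb5*. The 11 alpha chains that pair with beta1, *Itgav* left out, summed to 39.4 CPM per kb, which is less than *Itgb1* alone.

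The beta chains that pair with alphav followed. *Itgb6*, made by epithelia and known for releasing TGF-beta from its latent form together with alphav, had 13.7 CPM per kb. The vitronectin receptor chain *Itgb5* had 11.6 CPM per kb and *Itgb8*, which also activates latent TGF-beta, had 3.01. *Itgb8* came closer to *Itgb5* with its highest entry, an assembled one (9.69 CPM per kb), and by coding length (10.98 for *Itgb8* and 15.9 for *Itgb5*). *Itgb3*, known from platelets, vessels and osteoclasts, was low at 0.325. With *Itgb3* these chains summed to 28.7 CPM per kb, or 29.7% of the beta chains. *Itgav* itself had 12.3 CPM per kb, 0.893 times the level of *Itgb6* and 1.06 times that of *Itgb5*. By coding length these ratios were 1.59 and 1.74.

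*Itgb4*, whose long cytoplasmic tail anchors hemidesmosomes, is the largest beta chain here with 1802 codons over 40 exons (chr11:115974709-116008412, plus strand). It had 11.4 CPM and 1.85 CPM per kb. *Itga6*, the only alpha chain with which it pairs, had 7.82 times its level per kb, and *Itgb1* had 35.2 times. *Itga6* can pair with either beta chain, and levels of RNA do not show which pairs formed.

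Alpha chains were read by the ligand they bind. Of the laminin receptors, *Itga6* (chr2:71745616-71858416, plus strand) had 14.5 CPM per kb and *Itga3*, the main laminin receptor of podocytes and collecting ducts, had 8.72, a ratio of 1.66. *Itga7*, the laminin receptor of muscle, had 0.919. Together these 3 made up 45.1% of the summed level of alpha chains. The chains that recognise RGD sites in fibronectin, vitronectin and nephronectin, namely *Itgav*, *Itga5*, *Itga8* and *Itga2b*, made up 35.5%. This order turned by coding length, which gave 34.2% for the laminin receptors and 39.1% for the RGD receptors, and in CPM not divided by length, which gave 33.8% and 38.04%. Within them *Itga8*, which mesenchyme uses to bind nephronectin, had 4.50 CPM per kb and the fibronectin receptor chain *Itga5* had 1.83.

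The collagen receptors *Itga1*, *Itga2*, *Itga10* and *Itga11* made up 10.8% of the alpha chains, or 16.6% with the highest entries and 18.6% in CPM not divided by length. *Itga1*, found on stromal, mesangial and vascular cells, held most of this at 4.93 CPM per kb, 8.74 times the 0.564 of *Itga2*, the collagen receptor of epithelia and platelets. This ratio was 13.5 by coding length and 17.2 with the highest entries. *Itga10* and *Itga11*, known from cartilage and fibroblasts, lay at 0.202 and 0.106. *Itga1* and *Itga2* are neighbours on chromosome 13, with 20995 bp between them, and the log2 CPM of their highest entries, an assembled one for *Itga1*, differed by 4.73. *Itga9*, which binds tenascin and is known from lymphatic valves and muscle, had 2.51 CPM per kb.

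The leading order of alpha chains changed with the length that was used. Divided by coding length, *Itgav* came first at 27.6 CPM per kb ahead of *Itga6* at 19.4, and *Itga1* (15.3) stood above *Itga3* (13.4). Coding length leaves out the 3′-UTR, which takes up 3581 nt of the *Itgav* and 6994 nt of the *Itga1* transcript but 927 nt of *Itga6*. The first 4 beta chains and the order of laminin chains were the same under both lengths.

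Laminin chains were all above 1 CPM. *Lamb1* led them at 131 CPM and 22.7 CPM per kb (chr12:31265234-31329644, plus strand, 1834 codons). It stood 4.32 times above *Lamb2*, the beta chain of the mature glomerular and vascular membrane, which had 5.24 CPM per kb. *Lamc1*, the gamma chain of most laminins, had 13.6 CPM per kb (chr1:153218922-153332786, minus strand). *Lama5*, the main alpha chain of tubular and glomerular membranes in the grown kidney, had 7.81 CPM per kb (chr2:180176373-180225859, minus strand, 3718 codons over 79 exons). *Lamc1* thus stood 1.74 times and *Lamb1* 2.90 times above *Lama5*, and by coding length the first of these ratios was 2.69.

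*Lama5* made up 55.8% of the laminin alpha chains. The vascular and stromal chain *Lama4* made up 17.3% and *Lama2*, the chain of muscle and mesangium, 15.4%, at 2.42 and 2.15 CPM per kb. *Lama3*, the chain of epithelial anchoring, made up 6.25%. *Lama1*, the chain of the early tubule that persists in proximal tubule membranes, was the lowest at 5.37%, and *Lama5* exceeded it 10.4 times.

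Chains of lower level were also found among the beta and gamma laminins. *Lamb3*, an epithelial beta chain, had 5.63 CPM and 1.39 CPM per kb, which made up 4.74% of the laminin beta chains. *Lamc3*, a gamma chain, had 6.40 CPM from its highest entry and 0.846 CPM per kb from its RefSeq entry. The level of *Lama3*, 0.875 CPM per kb, lay near that of *Lamc3*.

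No leukocyte integrin exceeded 6.40 CPM, beside 8.20 CPM for *Ptprc* and 25.3 CPM for *Csf1r*. *Itgam*, the alpha chain of macrophages and neutrophils, had 3.19 CPM, and its beta partner *Itgb2* had 2.28 CPM, a ratio of *Itgb2* to *Itgam* of 1.13 per kb. *Itgal*, the chain of LFA-1, had 1.60 CPM and the dendritic cell and macrophage chain *Itgax* 1.36 CPM. *Itgb1* exceeded *Itgb2* 85.2 times per kb. *Itga4*, which leukocytes and some mesenchymal cells make, was the highest of the class at 6.40 CPM, but at 0.655 CPM per kb it lay just under *Itgam* (0.681). By coding length it lay above *Itgam*, at 2.07 against 0.920.

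Integrins of intraepithelial T cells were below 1 CPM, with *Itgae* at 0.454 and *Itgb7* at 0.421 CPM. *Itgad* stood at a log2 CPM of -5.25, the lowest value of the table, which 4617 entries share. *Itgal*, *Itgam*, *Itgax* and *Itgad* lie near each other on chromosome 7, with 3718 bp between *Itgax* and *Itgad*. *Itga2b*, the alpha chain of the platelet fibrinogen receptor, had 1.32 CPM. The platelet genes *Pf4*, *Gp9* and *Gp1ba* had 1.10, 0.0711 and 0.0441 CPM, where the lowest entries stood at 0.0263 CPM. *Ptprc*, *Csf1r* and the 4 other leukocyte markers in the table summed to 43.6 CPM and the 9 leukocyte and platelet chains to 17.1 CPM. Of the 17.1 CPM, *Itga4*, which some mesenchymal cells also make, held 6.40 and *Itga2b* 1.32. The part that cell number had in either sum was not tested.

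Genes that act with the chains were read from lists of 18 adhesion partners and 15 basement membrane partners. All 18 adhesion partners reached 1 CPM, with a median of 44.3 CPM. The talins *Tln1* and *Tln2*, which bind beta tails and switch integrins on, had 90.6 and 77.5 CPM. Of the kindlins, which act beside talin, *Fermt2* had 78.7 CPM, the epithelial *Fermt1* 19.7 CPM and the blood cell form *Fermt3* 2.05 CPM. Of the parvins, *Parva* had 77.9 CPM, *Parvb* 8.28 CPM and the blood cell form *Parvg* 1.01 CPM. The adaptors of focal adhesions *Ilk*, *Pxn* and *Vcl* lay between 43.4 and 72.9 CPM. *Cd151*, the tetraspanin that associates with *Itga3* and *Itga6* products, had 67.1 CPM, and *Plec*, which ties *Itgb4* to keratin, had 45.3 CPM.

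The basement membrane partners were higher, with a median of 136 CPM and a range from 23.7 to 471 CPM, beside a median of 20.7 CPM for the laminin chains. The ubiquitous collagen IV chains *Col4a1* and *Col4a2* had 471 and 296 CPM. Those of the mature glomerular membrane, *Col4a3*, *Col4a4* and *Col4a5*, lay between 75.5 and 235 CPM. *Npnt*, the nephronectin bound by *Itga8*, had 454 CPM, beside 26.2 CPM for *Itga8*. Of the linkers between the laminin and collagen networks, *Nid1* had 132 CPM, *Hspg2* (perlecan) 105 CPM and *Nid2* 23.7 CPM. The other laminin receptors *Dag1* (dystroglycan) and *Bcam*, which binds *Lama5*, had 169 and 136 CPM.

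**Figure D3:**
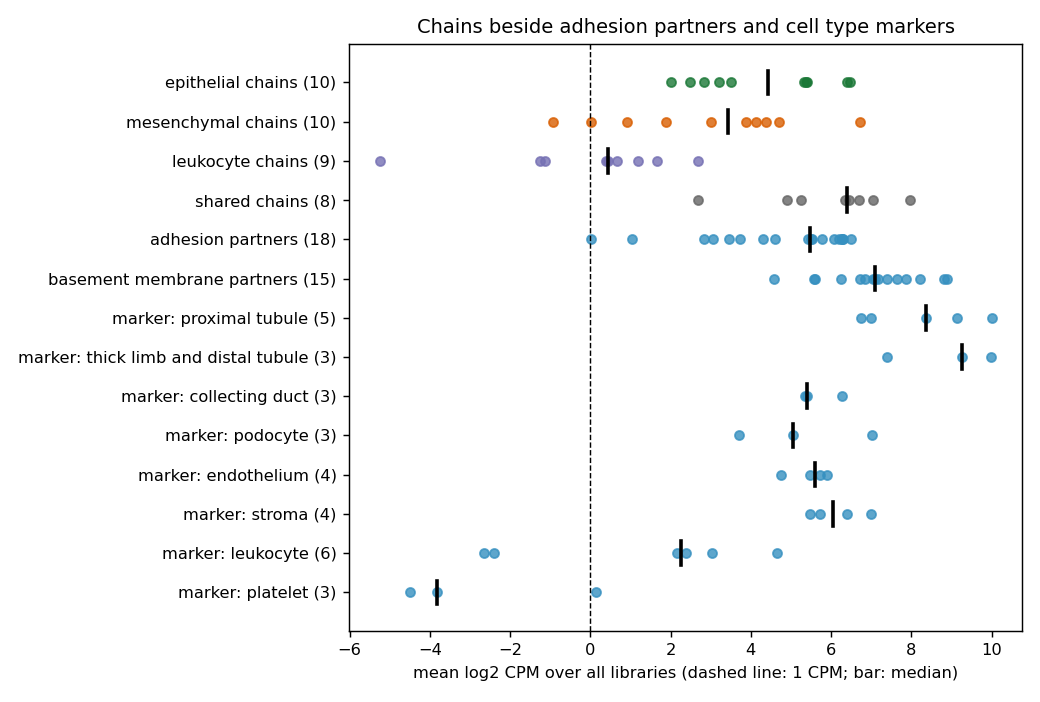
Mean log2 CPM of the chains by class, of their adhesion and basement membrane partners and of the cell type markers, with 1 point per gene, a bar at each median and a dashed line at 1 CPM. The basement membrane partners lie around a median of 7.09 and the adhesion partners around 5.47, whereas the leukocyte chains lie around 0.45.

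The value of a chain depended on which entry was read for a few genes. Of the 37 chains 17 had an entry assembled from the reads, and in 8 of these it was above every RefSeq entry. In *Itgb4* both kinds of entry had the same highest value (within 1e-09). The largest gain was in *Itgb8*, where 3 assembled entries lay between 6.11 and 6.35 log2 CPM and the RefSeq entry at 4.66, a ratio of 3.22. *Itga1* followed with 6.73 against 5.76, a ratio of 1.96, and *Itga6* with 6.40 against 5.97, a ratio of 1.36. In *Itgav* and *Itga2b* the assembled entry was lower, at 0.583 and 0.435 times the RefSeq entry. The highest assembled entry was also lower, at 0.933 to 0.993 times, in *Itga2*, *Itga3*, *Lama1*, *Lama3* and *Lamb1*. Gains were small in *Itgb6*, *Lama5* and *Lamb2*, at 1.003 to 1.018 times, and in *Lama2*, at 4.3694 against 4.3691 log2 CPM. Per kb of RefSeq length, the highest entries gave 9.69 CPM for *Itgb8*, 9.68 for *Itga1* and 19.6 for *Itga6*, and *Itga1* then stood above *Itga3* (8.72). Assembled entries carry no exons in the table, so their own length is unknown.

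**Figure D4:**
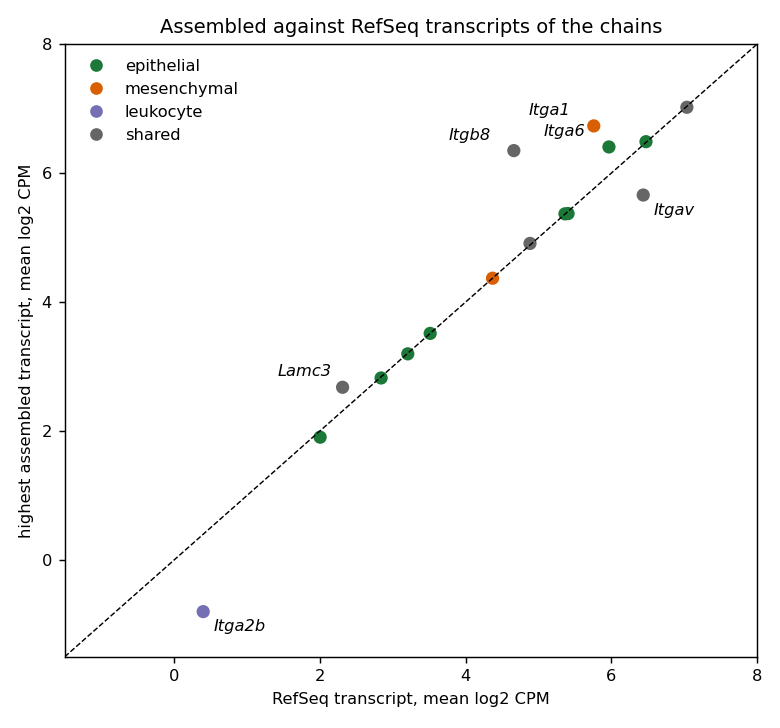
Mean log2 CPM of the highest assembled entry (y axis) and the RefSeq entry (x axis) of chains that have both, coloured by class, with equality as the dashed line. Of the chains drawn, *Itgb8* lies farthest above equality, with an assembled entry 3.22 times the RefSeq entry, and *Itgav* and *Itga2b* lie farthest below it.

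An assembled entry of *Itgb6* at -2.29 log2 CPM and one of *Lama3* at -2.98 lay 202 and 72.8 times below the highest entry of their gene. Entries of *Itgae* differed 2.26 times, those of *Lamc3* 1.29 times and those of *Itga9* 1.21 times. Several other chains were nearly level. The entries of *Itgb4* differed by at most 0.0053 log2 CPM, and in *Itgal*, *Itgam* and *Itgb5* all RefSeq entries had the same value. Entries of a gene can share reads and are not repeat measurements.

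Matches to the seeds of the floxed miRNAs were searched in the 3′-UTR of each chain's transcript and of 19019 genes in all. The match to the miR-17 and miR-20a seed, GCACTTT, stood in 4 of 37 chains (10.8%) and in 2100 of all genes (11.04%). Those chains were *Itga4*, *Itgb8* with 2 matches, *Lama3* and *Lamc1*. The miR-18 match GCACCTT stood in *Itga10*, *Itgal* and *Lamc1* (8.11%), beside 7.21% of all genes. The miR-19 match TTTGCAC stood in *Itga1*, *Itga6*, *Itgav*, *Itgb8* and *Lamc3* (13.5%), beside 10.03% of all genes. The miR-92 match GTGCAAT stood in *Itga5*, *Itga6*, *Itga8*, *Itgav* and *Itgb3* (13.5%), beside 5.98% of all genes. These are counts of letters on the RNA strand and do not show that a miRNA bound there.

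The miR-17 matches are printed, that of *Lama3* left out, and beside them the matches of *Itga6* and *Itgav* that are followed by an A, with 9 bases before and 7 after each match and the match in capitals, 5′ to 3′ on the RNA strand of GRCm38. Both miR-17 matches of *Itgb8* are on the minus strand, and the first begins at base 212 of a 3′-UTR of 5095 nt.
Itgb8, miR-17, chr12:119162892-119162914: agtgttgtaGCACTTTattgtaa
Itgb8, miR-17, chr12:119159166-119159188: gatttcacaGCACTTTgtaagtt
Lamc1, miR-17, chr1:153220314-153220336, minus strand: ctagttcctGCACTTTgtggctc
Itga4, miR-17, chr2:79327738-79327760, plus strand: ataaatatcGCACTTTagctgat
Itga6, miR-19, chr2:71856187-71856209, plus strand: ggctcctgtTTTGCACagccaaa
Itga6, miR-92, chr2:71856460-71856482, plus strand: gtcttaaatGTGCAATagaaggt
Itgav, miR-19, chr2:83803739-83803761, plus strand: atcagtaagTTTGCACaggcact
Itgav, miR-92, chr2:83806406-83806428, plus strand: tgttcttaaGTGCAATataacaa

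Integrins and laminins differed in 3′-UTR length, which sets how many matches can occur. The 26 integrin chains had a median 3′-UTR of 1113 nt, and 10 of them held 17 matches to the 4 seeds. The 11 laminin chains had a median of 210 nt, 8 of them under 500 nt, and 3 held 4 matches. The median over all genes was 787 nt. Among abundant chains, *Itgb1* (1112 nt), *Lamb1* (151 nt) and *Lama5* (174 nt) held none, whereas *Lamc1* (2551 nt) held 2. *Itgb8* held the most with 4, *Itgav* held 3, and 24 chains held none. The miR-17 matches came to 0.091 per kb of 3′-UTR in the chains and 0.0996 per kb over all genes. These rates were 0.0546 and 0.0608 for miR-18, 0.127 and 0.0887 for miR-19, and 0.109 and 0.0506 for miR-92. The rates of the chains rest on 5, 3, 7 and 6 matches in this order, and the differences were not tested.

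**Figure D5:**
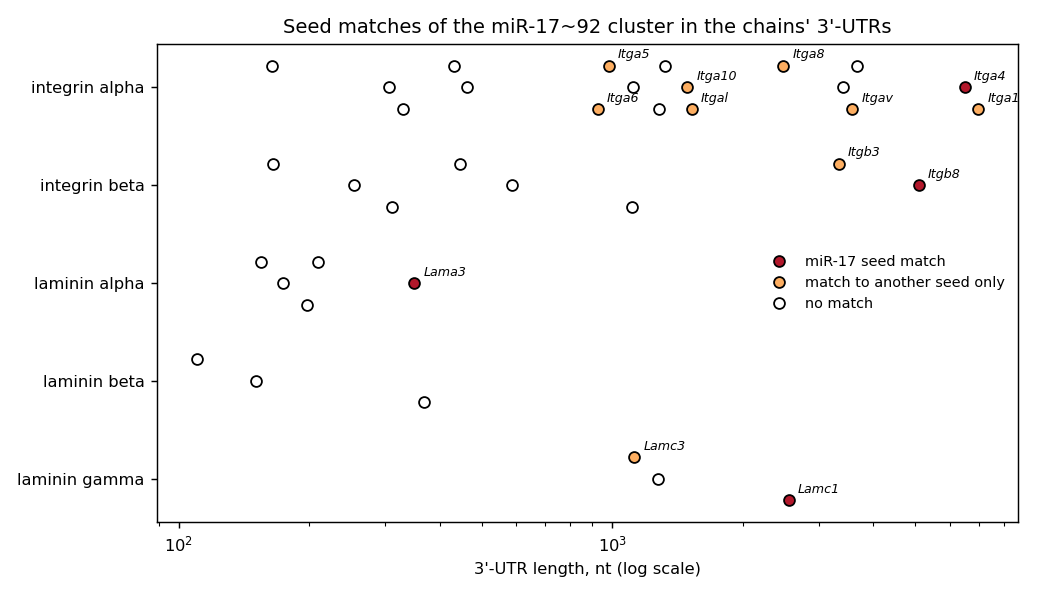
Length of the 3′-UTR (nt, log axis) of each integrin and laminin chain, by kind of chain, with a red point for a miR-17 match, an orange point for a match to another seed and an open point for none. Laminin 3′-UTRs are mostly under 500 nt, and *Itgb8*, with a miR-17 match, has one of the longest at 5095 nt.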

How the data were processed

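RNA was sequenced from 3 *Pkd1* F/RC SKO and 3 *Pkd1* F/RC DKO kidneys as stranded 51 bp single-end reads. The submitters' processing notes name bcl2fastq 1.8.4, TopHat2 2.0.12, Cufflinks, featureCounts of Subread 1.4.6, edgeR 3.2.4 and mm10, and reads with a mapping quality under 10 were discarded. The authors deposited 1 table of 54721 transcripts with their mean log2 CPM over all libraries. It also holds the authors' own comparison of both groups (log2 fold change, likelihood ratio statistic, p-value and FDR), which was not used, and holds no value of a single kidney. The CPM of all entries, several of which can share reads, sum to 1007270. Depth per library is unknown, and no test or error was computed.

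The highest entry represented each gene. Lengths and 3′-UTRs came from GENCODE M21 (GRCm38), by RefSeq identifier for 36 chains and by symbol for *Itga10*, and may differ from the transcript that was counted. Every chain at or above 1 CPM and every leukocyte chain was to be named, and of other genes those of the partner and marker lists. The values of 1 chain and 1 marker are not reported here, and both stay in the counts, medians and sums. The chains and lists were chosen with earlier results of these data known. The seed search was tested on simulated sequences. Python 3.11.15, numpy 2.4.6, pandas 2.3.3 and matplotlib 3.10.9 were used. Alternatives were the entry per gene, the floor, the length and the kind of seed match.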

Additional observations from a re-analysis of the deposited data

How the results depend on the processing

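Of 42 alternative values 25 stayed within the range set for an equal result, which was wider for counts than for medians and shares. The 25 include the shares from RefSeq entries alone, which equal the main values by construction. Counts and shares cannot turn their sign, and no median did. At a floor of 2 CPM 3 leukocyte chains remained above it in place of 6. The epithelial median log2 CPM was 3.48 with the mean over all entries of a gene, where the low entry of *Itgb6* enters. The mesenchymal median was 3.435 under this setting, so that the order of these classes held only narrowly. Coding length, the highest entry by RefSeq length and leaving out the 5 chains of several cell types, and the shares and ratios of single chains and ligand groups under other lengths, were chosen after seeing the data. With those 5 chains left out, the medians were 3.21 (epithelial), 3.87 (mesenchymal) and 0.42 (leukocyte), and the order of the first 2 turned. The choice of the 5 was uneven, since it took high chains from the epithelial class and a low one from the mesenchymal class. The epithelial share of the summed level was 26.2% in CPM of the highest entry without division by length and 23.0% by coding length. It was 27.1% with the highest entry by RefSeq length and 12.5% with those chains left out of the class but kept in the total. The mesenchymal share was 15.7%, 11.8%, 10.6% and 9.07%, and the leukocyte share 1.33%, 1.68%, 1.47% and 1.28%, in the same order. The cause of the shifts in share was not tested. RefSeq entries alone gave the same shares, since they alone have a length. Chains with a miR-17 match numbered 3 (8.11%) when an A had to follow, beside 3.30% of all genes. They numbered 6 (16.2%) with bases 2 to 7 and an A, beside 10.4% of all genes. Other count tools, other normalizations, a filter on low counts and leaving out each kidney were not run, since the table holds no counts of single kidneys. No paired analysis was possible because the table holds no value of a single kidney. The unknown depth limits what can be said of chains near the lowest value of the table, such as *Itgad*.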
